A study of Homo sapiens with 12 samples.

Results

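HEK293, a human embryonic kidney line transformed with adenovirus DNA, was profiled by RNA sequencing after 3 h in its solvent control, 0.1% DMSO. These 3 libraries of 12 (group DMSO) were taken by their treatment label and by no measured value, and they give the baseline of the line across 56634 genes. The other groups hold 3 libraries each and received 1 µM Senexin B for 3 h (SnxB), 0.1% DMSO for 1 h followed by 10 ng/mL TNFα for 2 h (TNF), or 1 µM Senexin B for 1 h followed by 10 ng/mL TNFα for 2 h (TNF_SnxB). All cultures were of unmodified HEK293 from ATCC in high-glucose DMEM with fetal serum, so every level below is that of 1 cell line in serum, and baseline means cells in DMSO. The labels call the libraries biological replicates and do not say whether they came from separate passages, so p-values measure the spread between these cultures only.

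TNFα is an inflammatory cytokine that binds the receptors encoded by TNFRSF1A and TNFRSF1B. Through adaptors, ubiquitin ligases and the IkB kinase complex, receptor 1 releases NF-kB dimers from IkB proteins, and the dimers enter the nucleus and activate inhibitors of the same pathway and inflammatory genes. Senexin B inhibits CDK8 and CDK19, the paralogous kinases of the Mediator kinase module, which joins Mediator, the complex between transcription factors and RNA polymerase II. A gene list made from a line given neither agent shows which receptors, kinases and targets have transcripts to act on.

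Promoters of 7 genes are shown because they mark the ends of the baseline: genes of the translation machinery at the top of the level range, and NF-kB target genes, 2 of them with no count in DMSO. Each is 280 bases from RefSeq (GRCh38.p14), from 250 before the gene's start to 30 from it, read 5′ to 3′ on the gene's strand. For RPL7A and RPS6 (ribosomal proteins) and EEF1A1 (translation elongation factor 1 alpha), capitals mark the unbroken run of C and T that holds the start base, the pyrimidine tract at which translation-machinery transcripts typically begin. Its lengths were 25, 11 and 9 bases. RPL7A lies at chr9:133347968-133348247 (+), RPS6 at chr9:19380207-19380486 (-) and EEF1A1 at chr6:73521003-73521282 (-).
RPL7A: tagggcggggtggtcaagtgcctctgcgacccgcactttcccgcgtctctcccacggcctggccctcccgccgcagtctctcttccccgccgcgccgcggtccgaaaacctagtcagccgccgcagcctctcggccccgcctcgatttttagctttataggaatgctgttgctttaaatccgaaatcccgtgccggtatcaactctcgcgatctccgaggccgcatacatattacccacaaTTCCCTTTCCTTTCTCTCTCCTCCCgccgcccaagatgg
RPS6: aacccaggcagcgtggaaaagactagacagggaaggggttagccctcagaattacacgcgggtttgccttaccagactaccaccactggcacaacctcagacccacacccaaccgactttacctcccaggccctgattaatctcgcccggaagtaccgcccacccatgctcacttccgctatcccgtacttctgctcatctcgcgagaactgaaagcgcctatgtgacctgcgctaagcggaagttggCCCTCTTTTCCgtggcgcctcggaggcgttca
EEF1A1: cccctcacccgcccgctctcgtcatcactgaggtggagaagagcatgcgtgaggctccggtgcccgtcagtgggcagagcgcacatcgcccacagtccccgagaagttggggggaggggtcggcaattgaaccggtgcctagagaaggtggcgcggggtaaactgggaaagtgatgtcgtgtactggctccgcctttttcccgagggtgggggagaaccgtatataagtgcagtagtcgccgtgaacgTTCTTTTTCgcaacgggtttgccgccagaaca

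For the chemokine genes CXCL10, CCL20 and CXCL1 and for NFKBIA, which encodes the IkB alpha inhibitor, capitals mark GGGNNNTTCC, a form of the NF-kB binding motif, searched on both strands. The match began 177 bases before the start in CXCL10, 79 in CCL20 and 81 in NFKBIA, and 2 overlapping matches began 79 and 78 bases before it in CXCL1. CXCL10 lies at chr4:76023468-76023747 (-), CCL20 at chr2:227813592-227813871 (+), CXCL1 at chr4:73869143-73869422 (+) and NFKBIA at chr14:35404720-35404999 (-). A match describes letters and is no evidence of binding.
CXCL10: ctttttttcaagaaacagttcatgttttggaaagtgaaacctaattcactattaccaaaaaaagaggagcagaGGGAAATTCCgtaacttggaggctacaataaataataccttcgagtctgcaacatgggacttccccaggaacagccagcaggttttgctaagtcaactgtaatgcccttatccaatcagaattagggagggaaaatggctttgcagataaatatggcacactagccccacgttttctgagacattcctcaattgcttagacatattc
CCL20: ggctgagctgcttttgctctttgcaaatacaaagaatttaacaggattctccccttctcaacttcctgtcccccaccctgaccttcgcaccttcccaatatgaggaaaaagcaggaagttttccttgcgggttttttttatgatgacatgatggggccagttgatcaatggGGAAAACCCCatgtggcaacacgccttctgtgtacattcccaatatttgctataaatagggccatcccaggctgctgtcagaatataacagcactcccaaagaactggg
CXCL1: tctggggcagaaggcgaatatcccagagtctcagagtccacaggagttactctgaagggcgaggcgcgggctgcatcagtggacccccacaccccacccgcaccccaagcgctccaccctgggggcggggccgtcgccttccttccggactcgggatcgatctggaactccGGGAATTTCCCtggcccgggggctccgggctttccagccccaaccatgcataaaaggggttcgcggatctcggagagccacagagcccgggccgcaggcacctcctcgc
NFKBIA: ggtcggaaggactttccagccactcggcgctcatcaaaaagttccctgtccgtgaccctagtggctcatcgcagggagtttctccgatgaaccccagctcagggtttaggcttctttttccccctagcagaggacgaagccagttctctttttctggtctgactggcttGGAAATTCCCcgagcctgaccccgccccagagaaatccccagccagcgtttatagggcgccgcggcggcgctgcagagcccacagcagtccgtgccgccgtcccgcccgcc

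The DMSO libraries held 11654512, 9967328 and 11714431 counts, and all 12 held between 8705277 and 50943310, with TNF library 2 the deepest. Levels are counts scaled to a common library total (CPM). Over the 33336271 DMSO counts, 3 counts, the limit that a count of 0 allows, correspond to 0.0900 CPM, which covers counting error only. TNF_SnxB libraries 2 and 3 stood apart from library 1 of their group: chi-square per degree of freedom between their counts was 5.34 and 5.09 against library 1 and 1.196 between libraries 2 and 3. It was 1.30 to 1.54 between the DMSO libraries, 1.10 to 1.12 between the SnxB libraries and 1.06 to 1.15 between the TNF libraries. The values do not show which of the TNF_SnxB libraries is the unusual one. Counts of called genes in the comparisons with DMSO, in all, by level and by list, are therefore also given without TNF_SnxB libraries 2 and 3. For TNF_SnxB against SnxB that would leave 1 library in a group, so no calls of that fit are given.

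Of the 56634 genes, 16222 (28.6%) had at least 3 counts in each DMSO library, 14152 (24.99%) reached a mean of 1 CPM, and 30992 (54.7%) had 0 counts in all 3. Of 18847 genes annotated as protein-coding in GENCODE 29, 12203 (64.7%) reached 1 CPM and 3514 (18.6%) had 0 counts. Their median was 11.3 CPM, or 2.05 CPM per kb of exon, the scale on which levels are compared between genes here. Exon length is the union of all annotated exons of a gene, used or not, so differences per kb also depend on the annotation. Counts were concentrated: 1133 genes held 50% of them, and the 2359 genes of 100 CPM or more held 65.9%. The 7697 genes of 10 to 100 CPM held 32.2%, the 4096 of 1 to 10 CPM held 1.62%, and the 11490 with counts but under 1 CPM (trace, below) held 0.231%.

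**Figure D1:**
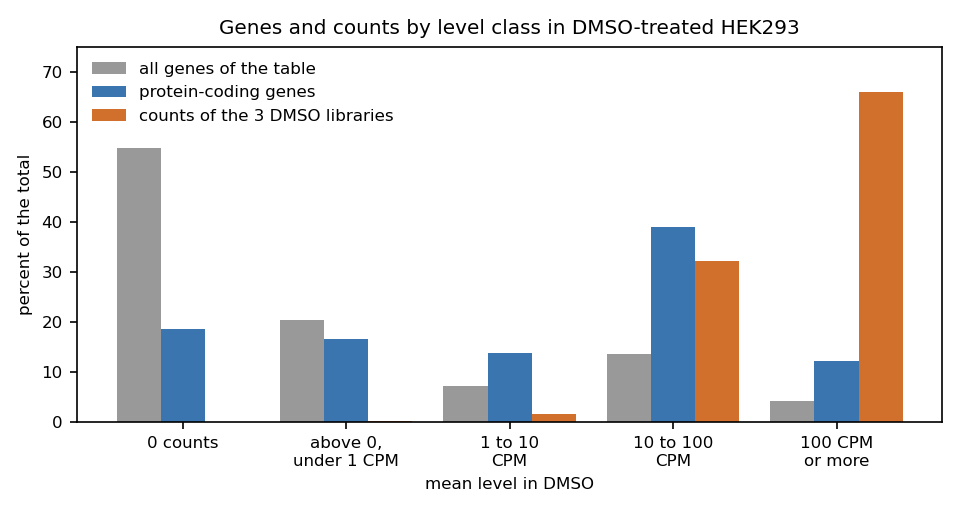
Share in percent (vertical axis) of all genes, of protein-coding genes and of DMSO counts that falls in each class of mean DMSO level (horizontal axis, CPM). Genes with 0 counts make up 54.7% of all genes, and the class of 100 CPM or more carries 65.9% of the counts.

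A count of 0 could not always be read as the absence of a transcript. All 37 genes of the mitochondrial genome had 0 counts in all 12 libraries, while 20 of 373 nuclear pseudogene copies of them had DMSO counts and summed to 373 CPM. MTATP6P1 alone held 329.7, 287 and 290.3 CPM. EEF1G and EIF4A1, which encode translation factors that dividing cells use, were also at 0. In GENCODE 29, 0.0736% of the exon bases of EEF1G belong to it alone, the rest being shared with AP002990.1, and 51.4% of those of EIF4A1, which shares bases with AC016876.2. Of 174 protein-coding genes with under 10% of their exon bases to themselves, 54.0% were at 0, compared with 18.2% of 18227 with at least 50%. How reads in shared exons were assigned is not given in the sources used here, and its part in these zeros was not tested. Genes named below at 0 or trace had at least 50% of their exon bases to themselves unless the share is given, except HOXC5 and MB21D1, which had no match in GENCODE 29.

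The most abundant transcripts were those of protein synthesis, glycolysis and the cytoskeleton. RPS4X, a ribosomal protein gene on the X chromosome (chrX:72255679-72277300, minus strand, GRCh38 coordinates of GENCODE 29 here and below), led on the per-length scale with 1591, 1598 and 1608 CPM per kb (mean 1599 ± 8.71 SD, n = 3). RPS2 and RPL19 had means of 1432 and 1168 CPM per kb. EEF1A1 stood at 1122, 1154 and 1138 CPM per kb, and its range overlapped that of RPL19, so their order is within the spread. EEF1A1 held the most counts of any gene (6674, 6862 and 6768 CPM). EEF2 (elongation factor 2) reached 999 CPM per kb, and GAPDH, a glycolytic enzyme, 975.

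All 30 listed cytosolic ribosomal protein genes exceeded 100 CPM, with a median of 483 CPM per kb and 5.37% of all counts. Glycolytic and glucose uptake genes split by isoform. Of 28, 23 reached 1 CPM, led by GAPDH and by ENO1 (enolase 1) at 837 CPM per kb. The liver and leukocyte isoform genes PKLR, HK3 and SLC2A2 had 0 counts. Among 20 chaperone genes, 17 reached 1 CPM, and the heat-inducible HSPA1A stood at 515, 489 and 474 CPM. HSPA1A and HSPA1B are near-identical copies, so the split of reads between them is uncertain. Cell cycle genes were on in 31 of 32 cases, among them MKI67 (proliferation antigen Ki-67) at 471, 471 and 491 CPM and CDKN2A, the p16 and ARF inhibitor locus, at 348.2, 345 and 317.6 CPM.

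Lineage genes did not follow 1 tissue. Of 29 kidney lineage genes, 12 reached 1 CPM, 8 were trace and 9 had 0 counts. The levels were in genes of the embryonic nephron progenitor and ureteric programmes: SALL1, a progenitor factor, had 34.1, 33.4 and 29.6 CPM, and GATA3, a factor of the nephric duct, had 21.5, 22.3 and 23.7. WT1, of progenitors and podocytes, stood lower at 9.18, 7.42 and 7.34 CPM, and LHX1 at 5.41, 5.32 and 5.12. PAX2 gave 9, 13 and 5 counts. PAX8, the other early nephric PAX gene, and the cadherin gene CDH16 had 0 counts. Of genes of differentiated tubules, UMOD, SLC12A1, SLC12A3, AQP2 and SLC22A6, which encode a urinary protein, a water channel and transporters, had 0 counts too. LRP2, which encodes the proximal tubule receptor megalin, went the other way at 13.7, 11.4 and 12.5 CPM, and its partner gene CUBN gave 5, 4 and 4 counts and the water channel gene AQP1 3, 1 and 4.

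Genes known from neurons were on as well. Of 27 neuronal genes, 16 reached 1 CPM and 3 were at 0. UCHL1, a neuronal ubiquitin hydrolase, had 229.8, 221.1 and 219.6 CPM, the light neurofilament gene NEFL had 55.4, 55.3 and 58.3, and INA (alpha-internexin) had 40.6, 40.1 and 39.0. ENO2, the neuronal enolase, had 69.9, 70.2 and 73.9 CPM. Others of the list were low, with the medium neurofilament gene NEFM at 9, 8 and 7 counts, MAP2 at 3.26, 3.71 and 3.67 CPM and GAP43 at 1.89, 2.11 and 1.79. STMN2, NEUROD1 and the vesicular transporter gene SLC17A6 had 0 counts, and DCX, of migrating neuroblasts, had 1. Of 18 genes of adrenal cortex and chromaffin cells, 3 reached 1 CPM (HAND2, CHGA and CHGB). PHOX2A and TH, which define sympathoadrenal cells, had 0 counts, and NR5A1, the steroidogenic factor, had 0, 1 and 2.

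The cells carried both epithelial and mesenchymal transcripts, 15 of 21 and 17 of 22 listed genes at 1 CPM or more. VIM (vimentin) had 490, 497 and 508 CPM and CDH2 (N-cadherin) 159, 158 and 173, beside KRT8 (keratin 8) at 151, 151 and 156 and EPCAM at 56.1, 59.6 and 60.9. CDH1 (E-cadherin) was at 4.55, 4.51 and 3.84 CPM. Per kb, CDH2 at 32.96 stood above CDH1 at 0.696 in every library. In bulk RNA, fewer cells of a kind and less RNA per cell cannot be told apart, so the lists do not show whether single cells held both programmes.

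Of 20 pluripotency and fetal genes, 8 reached 1 CPM. SOX2 had 22.7, 28.0 and 27.3 CPM, and the fetal RNA-binding protein genes LIN28B and IGF2BP1 had means of 74.6 and 209 CPM. The chromatin gene HMGA1 had 408. POU5F1, which encodes OCT4, gave 12, 13 and 6 counts, and NANOG and LIN28A had 0. Of 20 cancer-testis genes, 13 had 0 counts and only TEX15 (26.7, 25.1 and 24.7 CPM) and PRAME (23.4, 25.1 and 24.8 CPM) reached 1 CPM.

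Markers of other cell types were at or near 0 where they define a type. Of 22 leukocyte markers, 3 reached 1 CPM. They were LCP1 (82.3, 82.7 and 82.0 CPM), NCAM1 (57.1, 55.9 and 56.9), which is also a neural gene and in the neuronal list, and CORO1A (6.52, 5.02 and 5.80). PTPRC, which encodes the pan-leukocyte antigen CD45, had 1 count in all, and CD3E, MS4A1 and TYROBP had 0. CD68 had 1 count, with 14.2% of its exon bases its own. The list summed to 146.0 to 148.7 CPM per library, almost all from LCP1 and NCAM1. Endothelial CDH5 and TEK had 0 counts and PECAM1 1, although FLT1 and EGFL7 of that list had means of 19.6 and 15.1 CPM. The erythroid and liver list had 1 of 20 genes at 1 CPM, the transferrin receptor gene TFRC (372 CPM), which dividing cells use, with HBB and APOB at 0. The muscle list had 3 of 14, with the heart factor NKX2-5 at 26.6, 26.7 and 21.5 CPM and MYOG, MYF5 and MYH7 at 0.

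**Figure D2:**
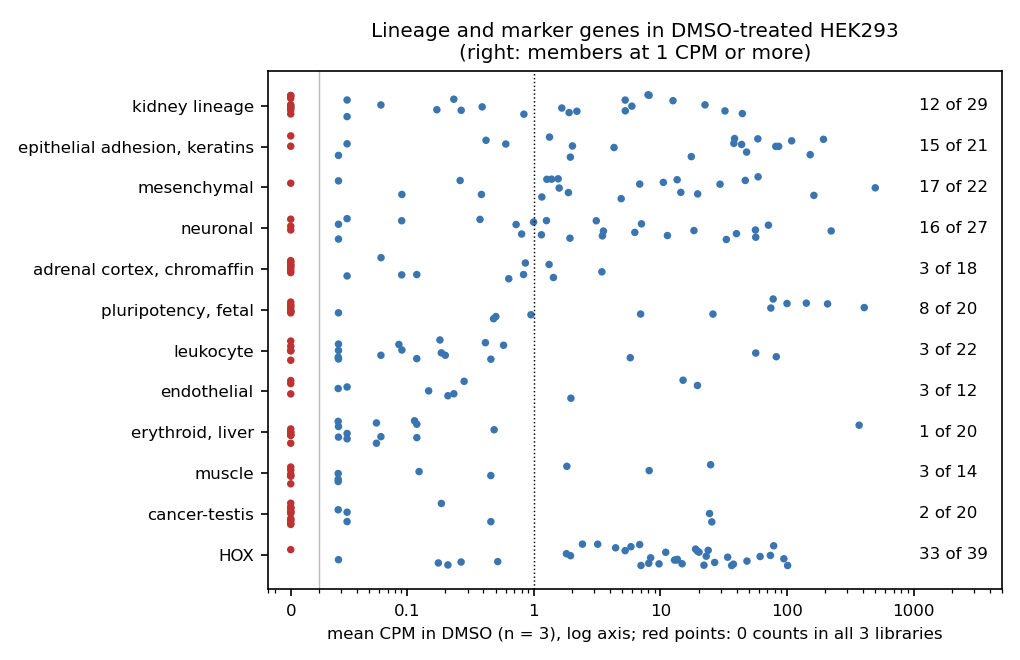
Mean DMSO level in CPM (horizontal log axis) of each member of the lineage and marker lists (rows, 1 point per gene), with genes at 0 counts in red at the left edge and, at the right, how many members reached 1 CPM. Kidney genes reach 12 of 29 and neuronal genes 16 of 27, while leukocyte, endothelial, erythroid and liver and muscle lists have 3, 3, 1 and 3.

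Transcription factors of body position were broadly on. HOX genes form 4 clusters, and their paralog number follows position along the body axis. Of 39, 33 reached 1 CPM, 5 were trace and HOXB1 had 0 counts. The highest per kb were HOXB9 (36.6 CPM per kb), HOXA5 (35.9), HOXA10 (27.3), HOXA9 (24.4) and HOXA11 (20.9), followed by HOXD11 (17.3) and HOXD13 (16.8). In CPM, HOXA10 had 103, 103 and 96.9 and HOXB9 91.6, 101 and 90.7. HOXD3 had 1 count, with 25.9% of its exon bases its own, and HOXD12, HOXC12 and HOXC5 had at most 6 in any library, so levels did not run evenly along a cluster.

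**Figure D3:**
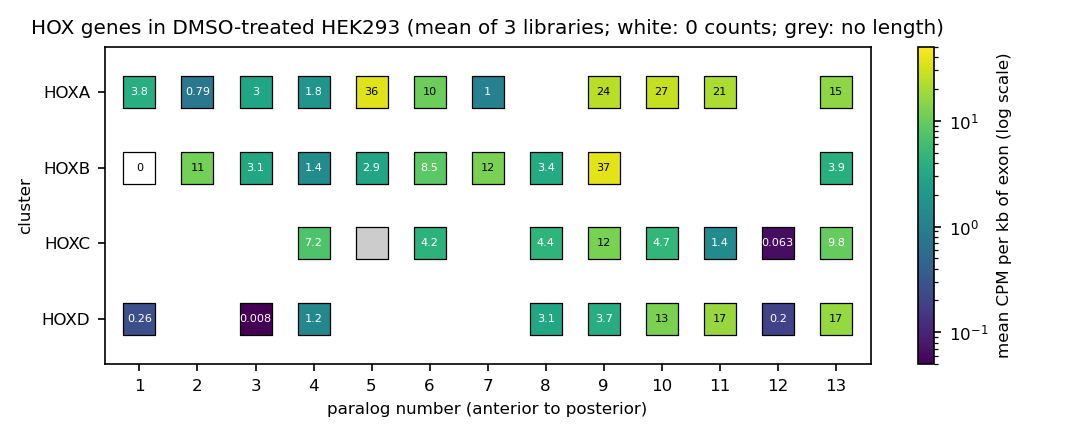
Mean DMSO level of each HOX gene in CPM per kb (colour and number in the square), by cluster (rows) and paralog number (columns). HOXB9 and HOXA5 are the highest at 36.6 and 35.9 CPM per kb, HOXB1 is white for 0 counts, and HOXC5 is grey because it has no length match.

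Among 47 PAX, LHX, SOX, GATA and sine oculis homeobox factors, 33 reached 1 CPM, from several germ layers at once. SOX4 had 181, 177 and 171 CPM and SOX11 81.8, 82.8 and 74.8, both neural and progenitor factors. The endodermal and cardiac factor GATA6 had 50.3, 55.7 and 50.02 CPM, GATA2, of blood progenitors and neurons, 48.8, 44.5 and 45.8, and the eye and brain factor PAX6 23.5, 25.3 and 22.4. SOX10, of neural crest, and SOX17, of endoderm, had 0 counts.

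Receptor genes set out which outside signals have a transcript to receive them. Of 29 genes of the TNF receptor family, 16 reached 1 CPM, 9 were trace and 4 had 0 counts. TNFRSF1A (chr12:6328757-6342114, minus strand), receptor 1 for TNFα, had 30.5, 28.8 and 30.8 CPM, from 355, 287 and 361 counts. TNFRSF1B, receptor 2 for the same ligand, had 0, 0 and 1 count, so the ranges of the receptors for TNFα did not overlap. Also at or near 0 were LTBR, the lymphotoxin beta receptor (0, 1 and 2 counts), CD40 (1, 0 and 0) and the lymphocyte receptor genes TNFRSF4, TNFRSF13B, TNFRSF17 and TNFRSF18 (0). The TRAIL receptor gene TNFRSF10B was the highest of the family per kb, at 92.8, 95.1 and 90.8 CPM or 18.0 CPM per kb, above TNFRSF12A (14.6) and TNFRSF1A (7.50). Of 18 ligands, 4 reached 1 CPM, and TNF itself had 0, 0 and 1 count.

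The chain from receptor 1 to NF-kB was complete at the level of transcripts. All 25 listed genes reached 1 CPM, with a median of 8.38 CPM per kb. The adaptor gene TRADD had 10.8, 11.4 and 8.71 CPM, the scaffold kinase gene RIPK1 39.9, 40.2 and 42.1, and TRAF2, the adaptor that brings ubiquitin ligases, 48.0, 47.1 and 40.5. Of the linear ubiquitin ligase, RNF31 had a mean of 17.3 CPM, RBCK1 41.6 and SHARPIN 27.8. MAP3K7, the TAK1 kinase, had 78.4, 81.2 and 81.0 CPM.

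Of the IkB kinase complex, CHUK had 86.3, 90.6 and 94.0 CPM, IKBKB 29.7, 27.6 and 32.2, and the regulatory subunit gene IKBKG 9.70, 9.23 and 8.37. In CPM the 3 ranges did not overlap, and per kb CHUK (13.03) stood above IKBKB (2.65) and IKBKG (2.58). The lowest of the chain were genes known as NF-kB targets themselves. TNFAIP3, the A20 ubiquitin editor, had 3.09, 3.81 and 4.10 CPM, and BIRC3, an inhibitor of apoptosis, 1.97, 2.11 and 3.16. NFKBIA, a known target as well, was not among the lowest, with 24.9, 27.5 and 28.7 CPM.

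All 5 NF-kB subunit genes were on. RELA, the p65 activator, led with 79.5, 84.1 and 76.5 CPM (14.6 CPM per kb). NFKB1 (p105 and p50) had 43.8, 38.8 and 40.5 CPM, NFKB2 (p100 and p52) 26.6, 26.4 and 26.5, and REL 15.6, 15.2 and 16.6. RELB was lowest in CPM at 3.604, 5.62 and 3.59. Per kb, RELB (1.41) and REL (1.203) were close, below NFKB2 (5.91) and NFKB1 (6.56).

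The branch from the receptor to cell death had its initiator caspase and, of the necroptosis genes, RIPK1 and MLKL but no count of RIPK3. CASP8, that caspase, had 29.2, 26.4 and 31.1 CPM, and CFLAR, the caspase 8 inhibitor, 32.9, 28.5 and 28.6. RIPK3, the kinase that activates MLKL, had 0 counts and so had ZBP1, while MLKL had 15.4, 14.8 and 15.4 CPM. These were the only 2 of 18 listed genes under 1 CPM.

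Other routes to NF-kB were thinner. Of 28 genes of the interleukin 1 and Toll-like receptor system, 12 reached 1 CPM, mostly the shared adaptors and kinases. IRAK1 had 601, 600 and 569 CPM and MYD88 29.8, 28.5 and 31.2. The ligand-binding receptors were mostly low: IL1R1 gave 4, 3 and 5 counts, TLR3, which binds double-stranded RNA, 2.32, 2.31 and 2.22 CPM, and TLR2, TLR4 and its partner LY96 0 counts. The co-receptor gene IL1RAP had 14.9, 15.9 and 16.7 CPM and IL18R1 4.81, 4.62 and 5.46. Among 20 nucleic acid and inflammasome sensors, TMEM173, which encodes STING, had 16.3, 18.9 and 15.6 CPM, while MB21D1, which encodes the cGAS enzyme upstream of it, gave 2, 0 and 3 counts. AIM2 and CASP1 had 0 counts. PYCARD was at 0 too, with 40.3% of its exon bases its own.

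**Figure D4:**
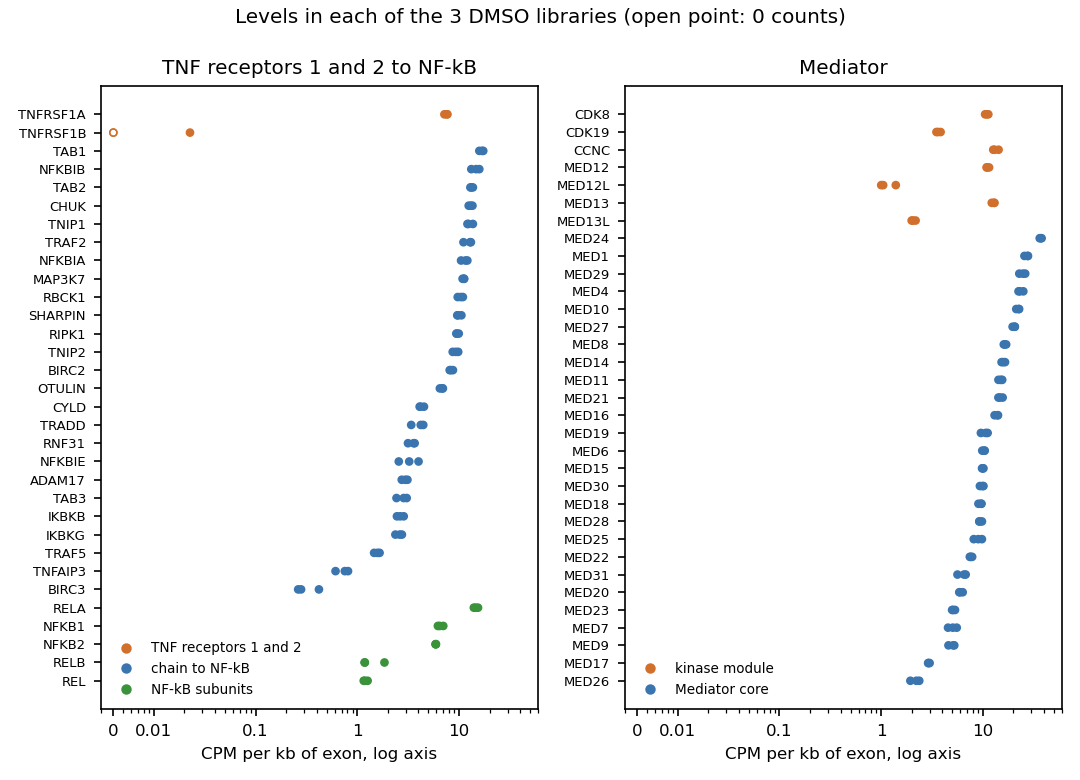
Level in CPM per kb (log axis) in each of the 3 DMSO libraries (points) of the TNF receptors 1 and 2, the chain to NF-kB, the NF-kB subunits, the Mediator kinase module and core Mediator. Open points are 0 counts. TNFRSF1A has points near its mean of 7.50, TNFRSF1B is open in 2 libraries, and every gene of the chain, the kinase module and the core is filled in all 3.

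Of 33 interferon and cytokine receptor genes, 19 reached 1 CPM. IL6ST, the shared chain of the interleukin 6 family, had 100, 99.3 and 105 CPM, and the interferon receptor genes IFNAR1, IFNGR1 and IFNGR2 had means of 86.3, 43.8 and 91.6. Lymphocyte and myeloid receptor genes such as IL2RA, IL7R and CSF3R had 0. Of 22 JAK, STAT and IRF genes, 18 reached 1 CPM, with STAT3 at 103, 102 and 101 CPM and JAK1 at 91.3, 93.0 and 97.7. STAT5A had 0 counts beside STAT5B at 75.9, 77.8 and 78.3 CPM, although the exon bases of STAT5A are 100% its own. IRF9, an interferon response factor that joins STAT proteins, had 0, 1 and 3 counts, with 51.6% of its exon bases its own.

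Among 40 receptor tyrosine kinases, 30 reached 1 CPM. EPHB4 (16.1 CPM per kb), FGFR3 (13.1), MET (12.5) and PTK7 (10.1) were the highest per kb, and EGFR was at 21.3, 23.0 and 23.6 CPM. ALK, ROS1 and TEK had 0 counts. IRS4, an insulin receptor substrate known in this line, had 401, 399 and 402 CPM. TGF-beta and BMP, Wnt and Notch systems were nearly complete, with 19 of 22, 25 of 27 and 15 of 16 genes at 1 CPM. CTNNB1 (beta-catenin) had 413, 419 and 419 CPM and NOTCH2 212, 225 and 230.

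Of 52 G protein-coupled receptors, 23 reached 1 CPM, 19 were trace and 10 had 0 counts. F2RL1 and F2R, the protease-activated receptors 2 and 1, led with 68.5, 65.8 and 67.2 CPM and 60.1, 59.6 and 64.2. P2RY1, a purine receptor, had 30.4, 28.99 and 29.5. CXCR4, the receptor of the chemokine CXCL12, had 8.75, 7.83 and 9.30 CPM. CHRM1, CHRM2, OPRM1 and HTR2A had 0. CCR6, the receptor of CCL20, also had 0, with 30.8% of its exon bases its own. CXCR3, the receptor of CXCL10, had 0.

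Nuclear receptors were on in 36 of 48 cases. NR2F2 had 130, 126 and 124 CPM, and NR3C1, the glucocorticoid receptor, 98.5, 95.9 and 107. ESR1, the oestrogen receptor alpha, had 1, 0 and 0 counts, and the xenobiotic and bile acid receptor genes NR1I2 and NR1H4 had 0. Of 26 AP-1, EGR, KLF and MYC factors, 20 reached 1 CPM. ATF4 was the highest per kb (270 CPM per kb), then JUN at 276, 284 and 260 CPM (77.3 CPM per kb), JUND (48.1) and MYC at 86.9, 94.7 and 88.8 CPM (30.04 CPM per kb). FOS had 2.23, 2.11 and 2.39 CPM, and MYCN 2, 1 and 4 counts.

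The targets of Senexin B were both transcribed. CDK8 (chr13:26254104-26405238, plus strand) had 37.2, 38.6 and 40.0 CPM and CDK19 (chr6:110609978-110815958, minus strand) 27.1, 28.8 and 26.2. Per kb, CDK8 at 10.9 was above CDK19 at 3.65 in every library. Their cyclin gene CCNC had 72.9, 75.05 and 82.3 CPM (13.3 CPM per kb).

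The other subunits of the kinase module come in paralog pairs as well. MED12, which activates the kinase, had 80.8, 81.7 and 85.5 CPM and MED12L 13.2, 12.6 and 17.6. MED13, which links the module to Mediator, had 155, 163 and 165 CPM and MED13L 74.6, 76.6 and 81.5. Per kb, MED12 (11.1) stood above MED12L (1.15) and MED13 (12.7) above MED13L (2.08). The order was the same in CPM, while the size of the gaps per kb depends on the annotated exons. All 26 genes of core Mediator reached 1 CPM, with a median of 10.1 CPM per kb beside 10.9 for the module. The highest were MED24 (37.0 CPM per kb) and MED1 (27.0), and the lowest was MED26 (2.18). Of 21 other transcription kinases and their partners, 20 reached 1 CPM, CDK9 among them at 45.2, 49.1 and 45.3 CPM.

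Which of these genes responded was read from edgeR's quasi-likelihood test over 14822 tested genes, calling genes at an adjusted p under 0.05. TNF against DMSO called 212 genes higher (1.43% of those tested) and 88 lower (0.594%), 2.02% in either direction. Senexin B against DMSO called 51 higher (0.344%) and 250 lower (1.69%), 2.03% in either direction. The median log2 change over all tested genes was -0.0025 and 0.0025. Without TNF_SnxB libraries 2 and 3, which share the estimate of the spread but are in neither comparison, the counts were 521 and 337 for TNF and 240 and 624 for Senexin B. Because the level class and the fold change use the same DMSO libraries, the breakdown by class is a description.

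TNF-raised genes lay in every class. The 2 tested genes at 0 in DMSO were both called, but they had counts only where TNF was given and passed the low-count filter through those groups, so that share was fixed by the filter. Trace genes could pass in the same way. Called higher were 9 of 671 trace genes (1.34%), 50 of 4093 at 1 to 10 CPM (1.22%), 133 of 7697 at 10 to 100 CPM (1.73%) and 18 of 2359 at 100 CPM or more (0.763%). The shares of the same 4 classes without TNF_SnxB libraries 2 and 3 were 1.34%, 1.61%, 3.85% and 6.02% (15, 66, 296 and 142 genes), so the class with the largest share changed from 10 to 100 CPM to 100 CPM or more. The size of the change fell with the level: the median log2 change of raised genes was 2.68 in the trace class, 0.86, 0.38 and 0.24 in the next 3. The median standard error over tested genes fell too, from 0.344 in the trace class to 0.0440 at 100 CPM or more, so a change had to be larger to be called at low level. Genes under 1 CPM in DMSO were 11 of the 212 raised genes, 5.19% (Wilson 95% interval 2.92 to 9.05), beside 4.54% of all tested genes. Leaving out TNF_SnxB libraries 2 and 3 gave 3.26% beside 7.36% of tested genes, so its place relative to the tested genes turned.

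Senexin B-lowered genes lay at higher levels. None of the trace genes was called lower, 14 (0.342%) of those at 1 to 10 CPM, 115 (1.49%) at 10 to 100 and 121 (5.13%) at 100 CPM or more. These were, without TNF_SnxB libraries 2 and 3, 29 (0.708%), 251 (3.26%) and 344 (14.6%), again with no trace gene. Of the 250 lowered genes, 236 (94.4%, Wilson 95% interval 90.8 to 96.6) had at least 10 CPM in DMSO, beside 67.8% of all tested genes and 71.2% of the TNF-raised genes. The shares without TNF_SnxB libraries 2 and 3 were 95.4% of lowered genes, 84.1% of TNF-raised genes and 65.8% of tested genes. The median DMSO level was 89.8 CPM for lowered genes, 24.8 for TNF-raised genes and 26.5 for all tested genes. For Senexin B the median standard error fell from 0.409 in the trace class to 0.0457 at 100 CPM or more. The median log2 change of lowered genes was -0.97, -0.42 and -0.20 in the classes from 1 to 10 CPM upward. A fall thus had to be larger to be called at low level.

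**Figure D5:**
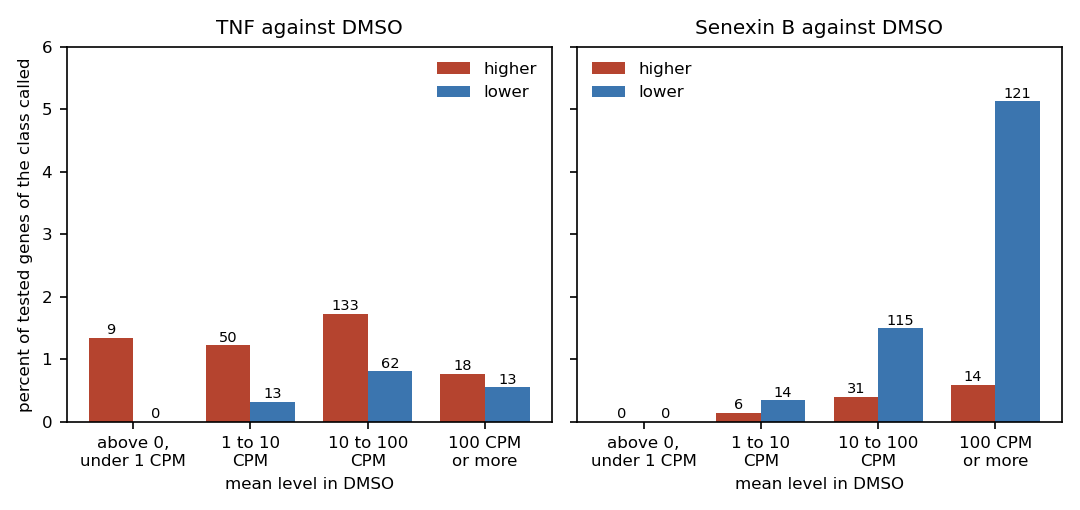
Percent of tested genes called higher or lower (vertical axis) in each class of mean DMSO level (horizontal axis, CPM) for TNF and Senexin B against DMSO, with gene counts above the bars. Senexin B-lowered genes rise to 5.13% at 100 CPM or more, and TNF-raised genes stay between 0.763% and 1.73% in the 4 classes that hold counts; without TNF_SnxB libraries 2 and 3, not drawn, these reach 14.6% and 6.02% at 100 CPM or more.

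Single libraries moved these counts by more than 1.5 times. TNF-raised genes were 141 without TNF library 2 and 525 without TNF_SnxB library 1. TNF-lowered genes were 53 and 48 without DMSO libraries 1 and 3, 57, 36 and 52 without TNF libraries 1, 2 and 3, and 349 without TNF_SnxB library 1. Senexin B-raised genes were 22, 30 and 24 without each DMSO library, 21, 19 and 25 without each SnxB library, and 247 without TNF_SnxB library 1. Senexin B-lowered genes were 163 without DMSO library 1, 158, 153 and 150 without each SnxB library, and 632 without TNF_SnxB library 1.

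Of the 30992 genes at 0 in DMSO, CXCL10 and CCL20 alone reached 3 counts in every TNF library, and none did so in every SnxB library. CXCL10, a chemokine of activated T cells, had 24, 128 and 26 counts after TNF (2.62, 2.51 and 2.26 CPM), at least 27.6-fold higher than the floor of 3 counts over the DMSO group. CCL20, a chemokine of dendritic and memory T cells, had 19, 95 and 21 counts (2.08, 1.86 and 1.83 CPM), at least 21.0-fold higher. Both were also 0 in every SnxB library. Because the 2 were picked by 0 counts in DMSO and counts in every TNF library, the gap between those groups is fixed by the choice. In TNF_SnxB the same 2 had 7, 20 and 17 counts and 8, 3 and 9.

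TNF in the presence of Senexin B (TNF_SnxB against SnxB) has no DMSO library among those compared, though all 12 share the estimate of the spread. It called 1094 genes higher (7.38%) and 1012 lower (6.83%). Of the genes raised by TNF alone, 158 were among them (74.5% of the 212 and 14.4% of the 1094), CXCL10 and CCL20 included. Without TNF_SnxB libraries 2 and 3 the comparison would rest on 1 TNF_SnxB library, so its calls are not given. Counts were 521, 531 and 433 higher and 392, 477 and 322 lower without SnxB libraries 1, 2 and 3. Without TNF_SnxB libraries 1, 2 and 3 they were 2834, 347 and 339 higher and 2557, 223 and 173 lower.

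Genes of the trace class that TNF raised were led by chemokines of neutrophils. CXCL1 had 6, 1 and 2 counts in DMSO, and 14.97, 14.8 and 14.4 CPM after TNF, a log2 change of 5.73 (SE 0.226, edgeR adjusted p = 1.1e-17). CXCL8 (interleukin 8) rose by 5.09, CXCL3 by 4.07, CXCL2 by 3.00 and CXCL6 by 2.68 on the log2 scale, and no TNF value of CXCL1, CXCL3 or CXCL8 lay within the DMSO range. Of 34 listed chemokine and cytokine targets of TNF, 5 reached 1 CPM, 17 were trace and 12 at 0 in DMSO. TNF raised 10 of the 34 and lowered none. Only 14 passed the low-count filter, 9 of them under 1 CPM in DMSO, and those could pass through the groups given TNF, so the share among tested genes is not read. The count was 11 of the 34 without TNF_SnxB libraries 2 and 3. Senexin B called 0 of the 14 in edgeR and 0 in DESeq2. At an unadjusted p under 0.05 in edgeR were 0 of the 14, beside 1790 of all 14822 tested genes. Most of the 14 were too low for a fall to be called. CXCL10 and CCL20 had 0 counts in both DMSO and SnxB, and Senexin B called none of the 671 tested trace genes in either direction. These zeros are therefore not read as a lack of effect. Apart from CXCL10 and CCL20 the genes of this list at 0, such as IL6, IL1B, CSF2 and CSF3, were not among the tested genes. CCL3 was at 0 as well, with 25.4% of its exon bases its own.

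Of the other 29 listed targets, 19 reached 1 CPM at baseline and 11 of the 29 rose with TNF, 10 of them at 1 CPM or more in DMSO. This count was 12 without TNF_SnxB libraries 2 and 3. IER3, a stress response gene, went from 11.9, 8.53 and 10.8 CPM to 140, 133 and 137 (log2 change 3.70, SE 0.0728, edgeR adjusted p = 2.3e-25). SDC4 (syndecan 4) had a mean of 24.6 CPM before and 145 after TNF, and CD83 13.3 and 69.3. The adhesion genes VCAM1 (0 counts), ICAM1 (1, 2 and 1) and SELE (1, 0 and 0), typical targets in endothelium, were too low to be tested. SOD2 had 123, 112 and 115 CPM already in DMSO and was not called.

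Within the chain, the members that rose most encode inhibitors and a ubiquitin ligase that NF-kB is known to induce. NFKBIA went to 269, 268 and 266 CPM (log2 change 3.31, SE 0.0585, edgeR adjusted p = 2.3e-26), TNFAIP3 to 43.8, 41.4 and 40.9 (3.51) and BIRC3 to 12.1, 11.1 and 12.2 (2.25). In all, 7 of 25 rose with TNF and none fell, with a median log2 change of 0.07, and 8 rose without TNF_SnxB libraries 2 and 3. The others were NFKBIE (0.85), TNIP1 (0.44), NFKBIB (0.29) and CYLD (0.27), and the last pair lost the call in some of the alternatives run.

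Among the subunits, RELB rose from the lowest level to 47.9, 48.7 and 50.97 CPM (log2 change 3.55, SE 0.118), NFKB2 to 96.8, 92.3 and 89.2 (1.81), NFKB1 to 88.6, 92.0 and 89.5 (1.14) and REL to 27.1, 24.4 and 24.4 (0.66). RELA, the most abundant at baseline, had 86.7, 86.7 and 87.7 CPM and a log2 change of 0.12 (SE 0.0508, edgeR adjusted p = 0.34). RELA was called without TNF_SnxB libraries 2 and 3, with nearly the same change (0.13, SE 0.0399, edgeR adjusted p = 0.042), which made 5 of 5 subunits. TNFRSF1A had a log2 change of 0.01 (SE 0.0696). Of the TNF receptor family, TNFRSF9 (4-1BB) rose by 2.77, TNFRSF12A by 0.46 and TNFRSF10B by 0.32, with FAS at 0.33 in a call that several alternatives lost. DESeq2 called 3 of these 4, and all 4 were called without TNF_SnxB libraries 2 and 3.

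At 100 CPM or more, TNF changes were small and still separated the groups. JUN went from 276, 284 and 260 CPM to 412, 388 and 391 (log2 change 0.54, SE 0.0429, edgeR adjusted p = 2.8e-10). IL6ST had 137, 140 and 135 CPM after TNF (0.44, SE 0.0536).

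The factors that Senexin B lowered included immediate-early and growth genes on at baseline. MYC fell to 17.9, 17.6 and 19.1 CPM, a log2 change of -2.33 (SE 0.0730, edgeR adjusted p = 4.3e-20), and JUN to 115, 121 and 115 (-1.25, SE 0.0480). Of 21 tested AP-1, EGR, KLF and MYC factors, 6 fell with Senexin B and none rose (median log2 change -0.20), beside 1.69% of all tested genes lowered. With TNF 5 rose and none fell (median 0.19), beside 1.43% of all tested genes raised. EGR1 (-0.83), ATF3 (-0.70), JUND (-0.51) and KLF10 (-0.51) were the other members lowered, and DESeq2 called 5 of the 6. Leaving out TNF_SnxB libraries 2 and 3, 8 fell with Senexin B and 8 rose with TNF, beside 624 and 521 of all 15276 tested genes. The TNF-raised members were JUNB (2.42), ATF3 (0.60), JUND (0.60), JUN and KLF10 (0.46). Both comparisons share the DMSO libraries.

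IRS4 fell from 401, 399 and 402 CPM to 162, 159 and 163 (log2 change -1.34, SE 0.0362, edgeR adjusted p = 2.7e-21), and ADAMTS1, a secreted protease gene, from 288, 275 and 287 to 104, 107 and 111 (-1.43). HSPA1A fell to 183, 176 and 177 CPM (-1.49), with the limit on its near-identical copy given above. Of the chaperone list, 8 of 17 tested fell and none rose, and 7 fell in DESeq2. Called lower were 1.69% of all tested genes and 5.13% of those at 100 CPM or more, where 16 of the 20 members lay. Without TNF_SnxB libraries 2 and 3, 12 fell, beside 14.6% of all tested genes at 100 CPM or more. CXCR4 fell to 2.18, 2.77 and 3.10 CPM (-1.71, SE 0.164, edgeR adjusted p = 1.6e-08). DESeq2 called 0 of the listed G protein-coupled receptor genes lower with Senexin B, beside 2 in edgeR. Whether its filter on mean counts left CXCR4 without an adjusted p was not examined. SOX4 (-0.68), SOX11 (-0.63) and the Notch target HES1 (-0.60) were lowered among developmental factors.

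The kinase module was not called against DMSO in the fit of all 12 libraries. CDK8 had 37.6, 37.5 and 40.3 CPM and CDK19 26.5, 29.3 and 26.6 with Senexin B, both ranges overlapping DMSO (log2 changes -0.04, SE 0.0713, and -0.01, SE 0.0822). Among its 7 genes edgeR called 0 under TNF and 0 under Senexin B, and DESeq2 called 0 and 0. At an unadjusted p under 0.05 in edgeR were 0 and 2, beside 1545 and 1790 of all 14822 tested genes. Without TNF_SnxB libraries 2 and 3, MED13 was called higher with Senexin B (log2 change 0.15, SE 0.0330, edgeR adjusted p = 0.00055, against 0.083 with all libraries). In TNF_SnxB against SnxB, CDK19 (0.28, edgeR adjusted p = 0.019), CCNC (0.21, 0.034) and MED13 (0.15, 0.027) were called higher. With TNF_SnxB library 1 alone in its group, the log2 changes of CDK19, CCNC and MED13 were 0.05, -0.02 and 0.03. Of the 26 core genes both tools called 0 in either comparison with DMSO, with 1 and 3 at an unadjusted p under 0.05. In TNF_SnxB against SnxB 1 core gene was higher and 3 lower, with the limit on the TNF_SnxB libraries given above. Kidney lineage genes, 12 of 29 tested, gave 0 calls for either agent against DMSO in edgeR and in DESeq2, with 3 and 2 at an unadjusted p under 0.05. In TNF_SnxB against SnxB 3 kidney lineage genes were lower (EMX2, GATA3 and SIX2), with the same limit. The neuronal list gave 1 call against DMSO, NEFL (-0.37 with Senexin B). Of 33 tested HOX genes TNF lowered 2, HOXA13 (-0.31) and HOXA11 (-0.29), beside 0.594% of all tested genes. HOXA11 was not called without DMSO library 1. Without TNF_SnxB libraries 2 and 3, 6 HOX genes were lowered, beside 337 of all 15276 tested genes.

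The DMSO libraries differed little for most genes, though their chi-square per degree of freedom exceeded that of the SnxB and TNF libraries. Over the 10056 genes whose mean reached 10 CPM, the median coefficient of variation between the 3 was 4.10%, beside 4.29% from counting alone, and 16 genes (0.159%) exceeded 20%. At 100 CPM or more the median was 2.65% and the largest 12.5%. The variation beyond counting, from edgeR's common dispersion over the DMSO libraries alone, was 2.49%. The widest spread was in RN7SK, a non-coding RNA that holds back the elongation kinase, with 18.9, 7.83 and 4.18 CPM (74.3%), where library 1 was highest. RPL41P1 and MTCO1P12, pseudogenes, varied by 28.8% and 27.4%.

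The RefSeq promoter table matched 76.9% of protein-coding genes. Fewer than 80% of genes had an entry in the classes at 0, trace and 1 to 10 CPM, so a comparison of promoters across classes is void and is not given. Among sets with at least that share, the C or T run of at least 5 bases over the start base shown above was in 16 of 25 ribosomal protein promoters (64.0%) and in 8 of 16 of the 20 highest genes per kb, beside 9.80% of all 27303 promoters of the table. GGGNNNTTCC was in 6 of 9 promoters of TNF-raised genes under 1 CPM (66.7%), in 3 of 21 of the chain (14.3%) and in 0 of 6 of the kinase module, beside 6.46% of the table. Those 9 genes were picked by their response to TNF and could pass the low-count filter through it. TNF-raised genes at 1 to 10 CPM and at 10 CPM or more had entries for only 52.0% and 78.8%. Whether the motif is particular to low-level genes was therefore not tested.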

How the data were processed

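RNA was extracted with RNeasy and libraries were made with the TruSeq RNA kit, per the labels' protocols. The deposited values are raw read counts per gene symbol. The submitters' processing notes name featureCounts (Subread 1.4.6), STAR 2.4, SAMtools 1.2 and the build hg38, also called GRCh38. Which annotation and strand setting served is not given in the sources used here. Members and gene lists were chosen with earlier results of these data known, so their agreement with known biology is no independent test.

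Levels are CPM on library totals. Gene type, length and shared exon bases came from GENCODE 29, matched by symbol for 36128 genes that hold 97.6% of DMSO counts. Comparisons used edgeR 4.0.16 (TMM, filterByExpr, quasi-likelihood, 12 libraries, group means, Benjamini-Hochberg) in R 4.3.3. The script was tested on simulated data, and DESeq2 1.42.0 was an alternative. Named genes were the 20 highest per kb and 10 highest in CPM, members of the TNF receptor, chain, subunit and kinase module lists, up to 6 highest and lowest members and the defining genes of other lists, up to 6 called genes per class, direction and comparison, and the 6 most variable. Other list members were named after their values were seen. Library 1, 2 or 3 of a group is its replicate number in the labels.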

Additional observations from a re-analysis of the deposited data

How the results depend on the processing

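Counts of called genes depended on which libraries estimated the spread. With only the groups compared in the fit, TNF against DMSO called 473 genes higher and 303 lower, Senexin B against DMSO 201 and 541, and TNF_SnxB against SnxB 298 and 206. Without TNF_SnxB libraries 2 and 3 these were 521 and 337, 240 and 624, and 177 and 42. Leaving out 1 library at a time gave 141 to 525 and 36 to 349 for TNF, 19 to 247 and 150 to 632 for Senexin B, and 339 to 2834 and 173 to 2557 for TNF_SnxB against SnxB. The alternatives that leave out a library of a group not compared were added after seeing the data. DESeq2 called 175 and 59, 43 and 224, and 864 and 719 genes, and with no low-count filter the counts were 263 and 66, 50 and 295, and 1278 and 734. With the replicate number as a block they were 207 and 84, 56 and 250, and 1114 and 1089. Same-numbered libraries had correlations of deviations between -0.0402 and 0.0941, and other-numbered libraries between -0.153 and 0.0991. No pairing by number was seen. The values cannot exclude one, because deviations sum to 0 within a group of 3 libraries.

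The share of TNF-raised genes under 1 CPM ran from 3.43% to 7.10% over single libraries left out. That of Senexin B-lowered genes at 10 CPM or more ran from 92.7% to 96.7%. It was 100% under DESeq2, which gives no adjusted p to genes under a mean count that it sets itself. That value can be fixed by the filter and is not read. Detected genes were 13908 at a floor of 10 counts and 18921 at 1, and 16545 to 16751 with 1 DMSO library left out. Genes at 1 CPM were 13704 when required in every library, 14174 with TMM-scaled totals and 11472 per kb, and 14122 to 14198 with a library left out. Genes at 0 were 32213 to 32494. Of 94 named genes called for TNF, 23 lost the call in at least 1 setting, as did 32 of 79 for Senexin B, and none reversed. Of 31 for TNF_SnxB against SnxB, 6 lost it without TNF_SnxB library 3. A setting that gave a gene no adjusted p was not counted. Depth limits levels under 0.0900 CPM.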
